A study of Bos taurus with 6 samples.

Results

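The genes described here license DNA replication origins and work at the replication fork. They are MCM2 to MCM7, PCNA, GMNN, RRM1 and RRM2, and every probe set annotated to one of these symbols was taken, whatever its values. This gave 11 probe sets for 9 of the 10 genes, out of 24016 probe sets other than the controls of the array and 8189 genes that had both a name and a probe set that could be tested. No probe set was annotated to MCM2 in the annotation used here, so MCM2 was not analysed. A second MCM3 probe set (Bt.8503.1.S1_at) stood at the floor of the scale, 2.12, on all 6 arrays and could not be tested, which left 10 member probe sets.

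The samples were bovine embryos from in vitro fertilization, hybridised to Affymetrix Bovine Genome Arrays as 3 pools of blastocysts (A, B and C) and 3 pools of degenerative embryos (A, B and C). Each pool held 20 embryos collected at day 8, and each was put on its own array. Both groups came from embryos that had compacted into a morula, and the degenerative embryos had then failed to form a blastocyst, so their developmental stage can vary within a pool. No treatment separated the groups. By the methods each pool mixed embryos of several cows and bulls, and whether parents were matched between the groups is not stated. Pools mixed embryos, so the spread between pools is not that between single embryos, and fewer cells of a type cannot be told apart from less RNA per cell.

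In the MCM family, proteins MCM2 to MCM7 form a ring that is loaded onto origins before S phase and later unwinds the DNA as the core of the replicative helicase. Geminin, the product of GMNN, blocks further loading by holding the loading factor CDT1. PCNA is the sliding clamp that tethers polymerases to DNA, and RRM1 and RRM2 are the large and small subunits of ribonucleotide reductase, which makes the deoxynucleotides. Cleavage-stage embryos replicate their genome in rapid succession and draw on such proteins at each division.

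Values are GCRMA expression values on the log2 scale, and differences are degenerative minus blastocyst. All arrays had close medians, from 6.35 to 6.48 over the 18937 probe sets tested. Degenerative pool A stood apart: 29.7% of all probe sets tested lay more than 1 log2 unit from the mean of the other two pools of its group, against 4.28% to 15.4% for the remaining 5 pools. Member differences and the counts over gene lists are therefore also given without it. The groups were checked against markers: summed trophectoderm markers spanned 15.97 to 16.38 in blastocysts and 15.81 to 15.91 in degenerative embryos (7 of 12 genes tested, 6 of them lower), and those of the inner cell mass and epiblast 13.93 to 14.06 and 14.18 to 14.98 (3 of 8 tested, all 3 higher). KRT18, which differed by -0.062, made up most of the trophectoderm sum. TFAP2A differed by -2.90, PTGS2 by -1.005 and IFNT2 by -1.01, but ELF3 by only -0.19, KRT8 by -0.041 and SLC2A1 by 0.43. Without degenerative pool A, TFAP2A differed by -2.25, PTGS2 by -0.97 and IFNT2 by -0.098, and all 7 differences were negative. The inner cell mass and epiblast sum was 14.98, 14.41 and 14.18 in degenerative pools A, B and C, and KLF4 was its brightest gene. POU5F1, SOX2 and KLF4 differed by 0.48, 1.03 and 0.51, and by 0.31, 0.68 and 0.26 without degenerative pool A. Hypoblast sums overlapped, at 15.08 to 15.29 and 15.13 to 15.72, with 4 of 7 genes tested higher and 3 lower (3 and 4 without that pool). Of the cumulus cell list, 10 of 12 genes were tested, summing to 10.54 to 11.06 and 11.06 to 12.01, with AMH and FOXL2 at the floor on every array. HAS2 was the brightest gene of that list in every pool, and differed by 0.45, or by -0.075 without degenerative pool A. Of the 10, 5 had a positive and 5 a negative difference, and 4 and 6 without degenerative pool A. INHBA measured 3.71 to 7.68 in blastocysts and 7.84 to 9.03 in degenerative embryos, while CYP19A1 differed by -2.08. PTX3 stood at 2.12, 8.36 and 7.22 in degenerative pools A, B and C, against 2.12 to 4.27 in blastocysts. The oocyte list, with 6 of 16 tested, summed to 11.26 to 11.76 and 10.95 to 12.10, most of it KIT, and BMP15 was at the floor. The other oocyte genes were dim, and 5 of the 6 had a positive difference, with a list median of 0.86. In degenerative pool A ZP2 stood at 6.16 and NLRP5 at 5.03, against blastocyst values of up to 2.97 and 2.15. ZP4 went the other way, at the floor in that pool and at 3.56 and 3.41 in degenerative pools B and C. Without degenerative pool A the median of the oocyte list was 0.29, with 5 genes fitted, 4 with a positive and 1 with a negative difference. All 3 inner cell mass and epiblast differences stayed positive without that pool. The part of these cells in the results was not tested.

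No member differed between the groups past the threshold. With limma, 0 of the 10 member probe sets had an adjusted p of at most 0.15, a level that 0.0211% of all probe sets tested reached, and the smallest adjusted p among members was 0.563. Of the 10, 8 had a positive difference and 2 a negative one, with a median of 0.31 against 0.00 over all probe sets tested. Without degenerative pool A, the median was -0.042, and 3 were positive and 7 negative. An exact permutation test of 3 pools against 3 cannot give a two-sided p under 0.1, so it can call nothing.

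The MCM genes encode the helicase ring, and MCM3, MCM4 and MCM5 had the widest differences of the members. All 6 tested MCM probe sets, of 5 genes, had a higher mean in degenerative embryos, and none passed the test. MCM3 measured 10.64, 10.66 and 10.37 in blastocyst pools A, B and C and 12.48, 11.20 and 10.74 in degenerative pools A, B and C. Every degenerative pool lay above every blastocyst pool, and degenerative pool A was farthest above. The difference was 0.92 ± 0.49 (SE, n = 3 pools per group), with a 95% interval from -0.36 to 2.20, and the adjusted p from limma was 0.651. Without degenerative pool A it was 0.42. MCM3 was the only member whose degenerative pools all exceeded the blastocyst pools, a pattern that 6.48% of all probe sets tested had.

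MCM4 measured 11.48, 11.02 and 10.96 in blastocysts and 12.93, 11.62 and 11.23 in degenerative embryos. Degenerative pools A and B were above all blastocyst pools, while pool C lay between blastocyst pools A and B. The difference was 0.78 ± 0.50 (limma adjusted p = 0.711), and 0.28 without degenerative pool A. MCM5 measured 9.81, 9.60 and 8.95 in blastocysts and 11.46, 9.71 and 9.11 in degenerative embryos. Here 1 pool carried the difference: it was 0.64 ± 0.69 with all pools (limma adjusted p = 0.748) and -0.046 without degenerative pool A.

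MCM7 measured 12.09, 12.02 and 11.85 in blastocysts and 12.90, 12.16 and 11.73 in degenerative embryos, and degenerative pool C was the lowest of all 6. Its difference was 0.28 ± 0.32 (limma adjusted p = 0.760) and turned to -0.038 without degenerative pool A. MCM6 had 2 probe sets at unlike levels. The brighter one (Bt.21433.1.S1_at) measured 13.28, 13.26 and 12.86 in blastocysts and 13.77, 13.26 and 13.17 in degenerative embryos, so that the B pools were level. Its difference was 0.27 ± 0.22 (limma adjusted p = 0.737), and 0.08 without degenerative pool A.

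The dimmer MCM6 probe set (Bt.21433.2.S1_at) was high in both A pools, whichever the group. It measured 9.30, 5.94 and 5.73 in blastocysts and 9.03, 6.76 and 6.20 in degenerative embryos, so that no other pool came within 2 log2 units of an A pool. The difference was 0.34 ± 1.34, with an interval from -3.16 to 3.84, and turned to -0.51 without degenerative pool A. Its brighter partner did not show that gap in blastocysts. Replication genes other than the members had 20 probe sets, of 18 genes, that were dimmer than another probe set of their gene. Blastocyst pool A was the highest of its group in 14 of these, against 50.5% of the 2812 such probe sets of all genes. Degenerative pool A was the highest of its group in 13, against 44.7%. For the brightest probe set of 19 such replication genes, MCM6 included, these counts were 9 and 12, against 36.3% and 47.1% of all such genes. Blastocyst pool A also had the highest 5′ minus 3′ signal of the 6 pools on all 4 control genes, at 1.65 for EEF1A1, -1.83 for GAPDH, -2.13 for PPIB and -6.60 for EIF4E. In the same order, degenerative pool A was at -0.83, -2.51, -2.52 and -9.87, against -0.70 and -0.52, -2.52 and -2.48, -3.22 and -2.76, and -9.80 and -9.13 in degenerative pools B and C. The part of 5′ and 3′ coverage in the MCM6 values was not tested.

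**Figure D1:**
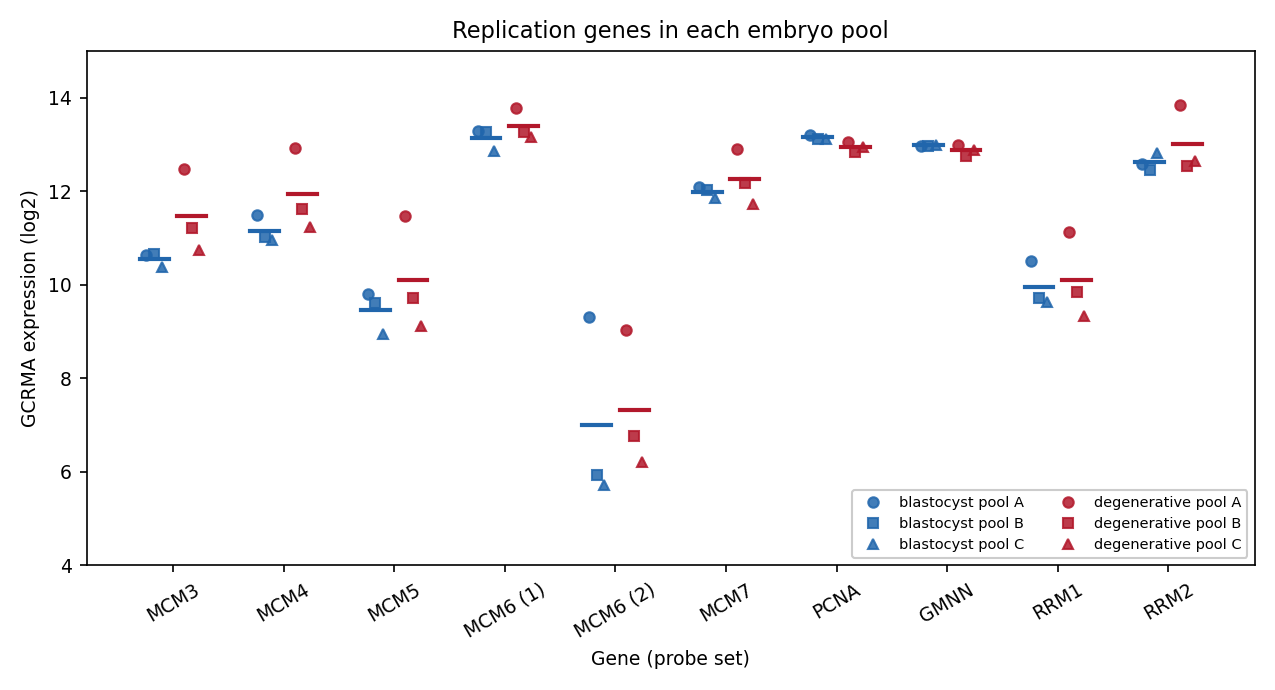
GCRMA expression (log2, vertical axis) of each tested member probe set, with 1 marker per pool, circles for A, squares for B and triangles for C, blastocysts in blue and degenerative embryos in red, and bars at group means. MCM6 (1) and (2) are its brighter and dimmer probe sets; the red circle of degenerative pool A is the highest red marker for all 10 probe sets.

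PCNA, the clamp, and GMNN, the licensing inhibitor, varied least and were the members with negative differences. PCNA measured 13.21, 13.12 and 13.12 in blastocysts and 13.04, 12.83 and 12.95 in degenerative embryos. The highest degenerative pool lay below the lowest blastocyst pool, a pattern that 8.93% of all probe sets tested had. The difference was -0.21 ± 0.07, with an interval from -0.39 to -0.02, a 1.15-fold lower level. Its limma p was 0.0375 before and 0.563 after adjustment, and 5.27% of all probe sets tested were lower with an unadjusted p under 0.05. PCNA was also lower with SAM at a false discovery rate of 25%, which took 4.53% of all probe sets in that direction, and not at 15%.

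The PCNA difference did not keep its separation under another scaling. With each array centred on its median it was -0.18, the groups overlapped, and the unadjusted limma p was 0.193. Leaving out 1 pool at a time gave an unadjusted limma p of 0.0172 without degenerative pool A and of up to 0.111 otherwise. The 6 reference genes differed by -1.34 (YWHAZ), -0.45 (PPIA), -0.17 (ACTB), 0.17 (RPLP0), 0.30 (SDHA) and 0.45 (GAPDH), and only RPLP0 and ACTB by a smaller amount than PCNA. GMNN measured 12.97, 12.97 and 12.99 in blastocysts and 12.98, 12.75 and 12.88 in degenerative embryos. Degenerative pool A stood at the level of the blastocysts, while B and C were below it. The difference was -0.11 ± 0.07 (limma adjusted p = 0.711), and without degenerative pool A it was -0.16 with an unadjusted limma p of 0.0424.

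The ribonucleotide reductase subunits did not differ beyond the spread between pools. RRM1 measured 10.51, 9.72 and 9.63 in blastocysts and 11.12, 9.84 and 9.33 in degenerative embryos, and the A pools were the highest of both groups. Its difference was 0.14 ± 0.56 (limma adjusted p = 0.966), with an interval from -1.31 to 1.60, and was -0.37 without degenerative pool A. RRM2 measured 12.58, 12.46 and 12.82 in blastocysts and 13.83, 12.54 and 12.65 in degenerative embryos. Only degenerative pool A exceeded the blastocyst range. The difference was 0.39 ± 0.40 (limma adjusted p = 0.739) and -0.022 without that pool.

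**Figure D2:**
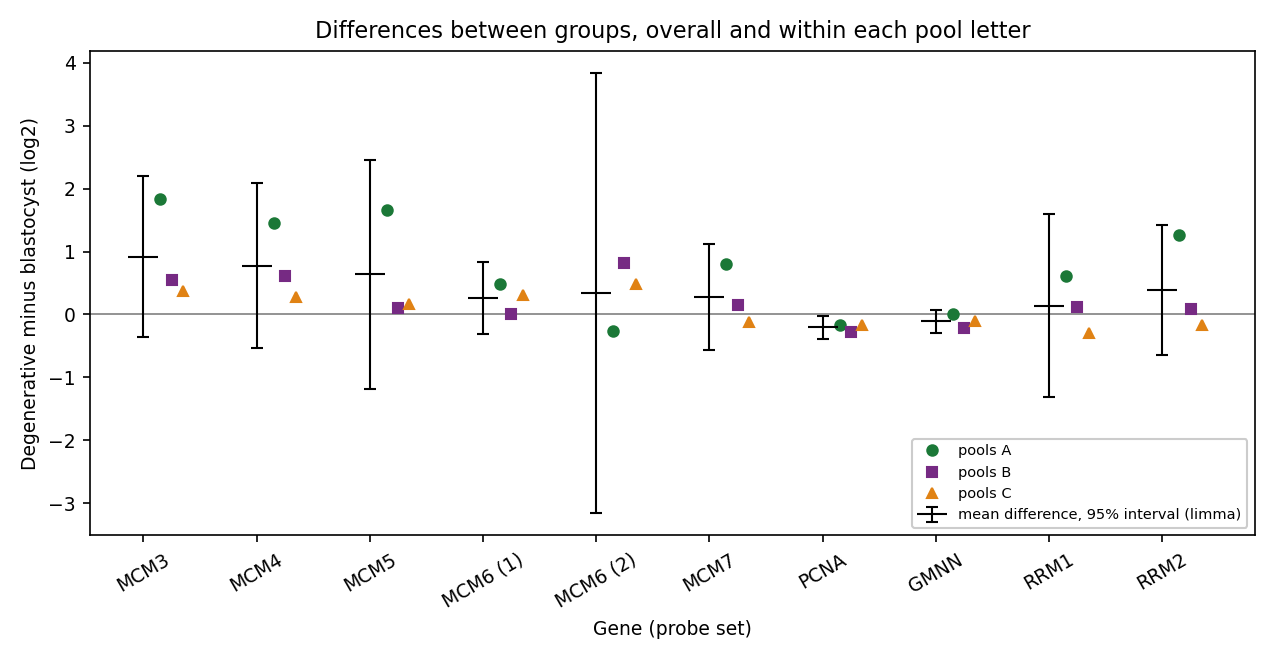
Difference between groups (degenerative minus blastocyst, log2, vertical axis) for each tested member probe set, as the mean with its 95% interval from limma and as the differences between pools of the same letter. The interval of PCNA, from -0.39 to -0.02, is the only one that leaves out 0, and the A pools differ most for MCM3, at 1.84.

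Degenerative pool A was the highest of its group for all 10 member probe sets, against 40.0% of all probe sets tested. It lay over the next degenerative pool by 1.28 for MCM3, 1.30 for MCM4, 1.76 for MCM5, 1.28 for RRM1 and 1.19 for RRM2, but by only 0.09 for PCNA and 0.10 for GMNN. Blastocyst pool A was the highest of its group for 7 of 10, against 33.9%. Over the degenerative pools MCM5 spanned 2.35, while PCNA spanned 0.21 and GMNN 0.23.

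Pools of the same letter were also compared. The median member difference was 0.71 between the A pools, 0.11 between B pools and 0.025 between C pools, while that of all tested probe sets was 0 for each letter. MCM3, MCM4, MCM5 and the brighter MCM6 probe set were higher for every letter, although the B pools were level for MCM6, and PCNA was lower for every letter. These were 5 of 10 with 1 direction for every letter, against 34.0% of all probe sets tested. With both A pools left out, the median member difference was 0.073, with 6 positive and 4 negative, and the difference was 0.46 for MCM3, 0.44 for MCM4 and -0.23 for PCNA.

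**Figure D3:**
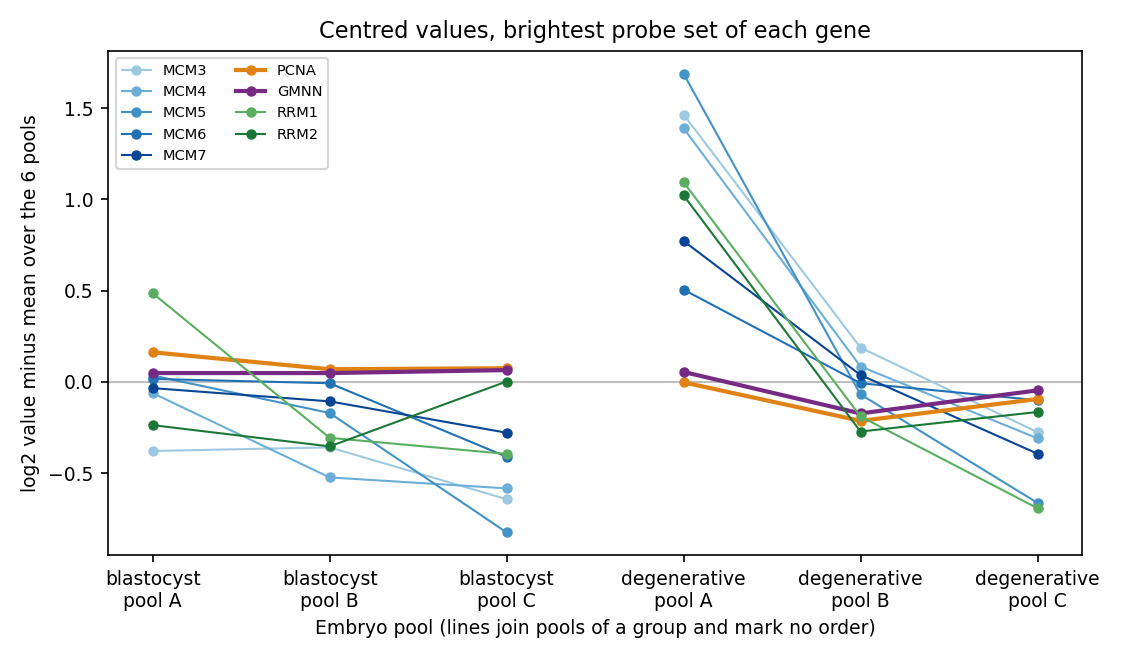
Centred profile of each member gene, as the log2 value minus its mean over the 6 pools (vertical axis) by pool, using the brightest probe set; lines join pools of a group and mark no order. The MCM genes stand between 0.51 and 1.69 in degenerative pool A and at 0.19 or less in the remaining pools, while PCNA and GMNN stay between -0.21 and 0.16 in all pools.

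The profile over the 6 pools was closest to the member mean for MCM7, with a root mean square distance of 0.09 log2 units, and farthest for PCNA, at 0.43. Among named genes outside the members, the 5 closest to that mean were APEH, a peptide hydrolase (0.04), PFKFB2, a regulator of glycolysis (0.06), DDX1, an RNA helicase (0.06), GNL2, a nucleolar GTPase (0.07), and SMARCE1, a chromatin remodelling subunit (0.07). Their differences between groups were 0.33 to 0.43, and none passed the test.

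The wider replication machinery was read from 7 lists with 105 genes, of which 73 were tested with 1 probe set a gene. None passed the limma threshold. Of these 73, 44 had a positive and 29 a negative difference, with a median of 0.12 against 0.02 over all genes. An unadjusted limma p under 0.05 was reached by 6 in the positive direction (POLD3, RPA1, FEN1, CHEK1, CHAF1A and ASF1B), against 4.68% of all genes, and by 1 in the negative direction (TFDP2), against 5.65%. Degenerative pool A was the highest of its group for 47 of the 73, or 64.4%, against 42.4% of all genes. Without that pool, 39 had a positive and 34 a negative difference, with a median of 0.041, and 4 in each direction had an unadjusted limma p under 0.05, against 5.48% and 7.37% of all genes. Of the 6, POLD3, CHAF1A and ASF1B were still among them, while RPA1, FEN1 and CHEK1 were not.

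Origin licensing factors had 6 positive and 5 negative differences of 11 tested, with a median of 0.02, and 3 and 8 without degenerative pool A, with a median of -0.28. ORC1, the largest origin recognition subunit, measured 9.62, 9.63 and 9.07 in blastocysts and 11.86, 10.27 and 9.58 in degenerative embryos, a difference of 1.13 ± 0.65 that was 0.49 without degenerative pool A. CDC7, the kinase that activates loaded MCM rings, differed by 1.12 ± 1.10, with degenerative pool A at 6.70 and all other pools from 2.68 to 3.66, and its difference was -0.013 without that pool. CDC6, which loads MCM proteins, differed by 0.33 and ORC6 by -0.19, or by 0.059 and -0.29 without it.

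Among fork helicase and polymerase genes, 9 of 14 tested had a positive difference, with a median of 0.22. Without degenerative pool A, 11 of the 14 did, with a median of 0.21. POLD3, a subunit of DNA polymerase delta, measured 8.70, 8.80 and 8.82 in blastocysts and 8.99, 9.41 and 9.41 in degenerative embryos. Here degenerative pool A was the lowest of its group, unlike in the members. The difference was 0.50 ± 0.14, with a limma p of 0.0171 before and 0.516 after adjustment. POLD3 had 3 probe sets, and the dimmer ones lay near the floor, at 2.12 to 3.12 and 2.34 to 2.46 over all arrays. POLD1, the catalytic subunit, differed by 0.76, PRIM1, a primase subunit, by 0.72, and POLA1, of the priming polymerase, by 0.33. Without degenerative pool A these were 0.27, 0.33 and 0.21. PRIM1 was dim, at 3.18 to 3.30 in blastocysts and 4.73, 3.35 and 3.80 in degenerative embryos.

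Of the clamp loader, single-strand binding and lagging strand genes, 9 of 14 tested had a positive difference, and 8 without degenerative pool A. FEN1, the nuclease that trims Okazaki fragments, measured 10.99, 11.16 and 11.14 in blastocysts and 12.09, 11.72 and 11.29 in degenerative embryos, with no overlap between groups. Its difference was 0.60 ± 0.22 (limma adjusted p = 0.577), opposite in sign to that of PCNA, the clamp it binds. RPA1, which coats single-stranded DNA, differed by 0.27 ± 0.10 (limma adjusted p = 0.580), CHTF18, of an alternative clamp loader, by 1.16 ± 0.47 (0.69 without degenerative pool A), and RNASEH2B, of ribonuclease H2, by -0.30.

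Deoxynucleotide supply genes other than the reductase had 5 positive and 3 negative differences of 8 tested, and 2 and 6 without degenerative pool A. TK1, the thymidine kinase of S phase, measured 9.70, 10.59 and 10.82 in blastocysts and 10.98, 11.44 and 11.17 in degenerative embryos, a difference of 0.82 ± 0.34. DTYMK, which phosphorylates thymidylate, differed by 0.34 (0.22 without that pool), CMPK1, a pyrimidine nucleotide kinase, by -0.50 and DCTD, a deaminase, by -0.24. In fork protection and checkpoint genes, 2 of 5 tested had a positive difference, and also 2 without degenerative pool A. CHEK1, the replication checkpoint kinase, differed by 0.42 ± 0.15 (limma adjusted p = 0.576), TIMELESS, of the fork protection complex, by 0.68 and RAD17, a checkpoint clamp loader, by -0.32. Without degenerative pool A, TIMELESS differed by 0.13 and RAD17 by -0.54. WEE1, which restrains entry into mitosis, differed by -0.71 ± 0.34, and every degenerative pool, from 7.41 to 7.52, lay below every blastocyst pool, from 7.70 to 8.92.

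Histone supply genes had 4 positive and 3 negative differences of 7 tested, and 3 and 4 without degenerative pool A. ASF1B, a histone chaperone, measured from 7.81 to 8.17 in blastocysts and 9.38, 8.86 and 8.40 in degenerative embryos, a difference of 0.89 ± 0.28 (limma adjusted p = 0.541). CHAF1A, of the chromatin assembly factor that binds PCNA, differed by 0.78 ± 0.28 (limma adjusted p = 0.572), SSRP1, of the FACT complex, by 0.86, and ASF1A by -0.30. Without degenerative pool A these were 0.50, 0.40 and -0.15. Of the E2F and RB regulators, which control transcription of replication genes, 9 of 14 tested had a positive difference, and 10 without degenerative pool A. TFDP2, a dimerization partner of E2F factors, measured 11.50, 11.18 and 11.18 in blastocysts and 10.96, 10.79 and 10.59 in degenerative embryos. Its difference was -0.51 ± 0.14, with a limma p of 0.0188 before and 0.532 after adjustment, and it was the only gene of these lists taken by SAM at 25%. CCNE1, the cyclin that starts S phase, differed by 0.84, LIN52, of the complex that represses or activates cell cycle genes, by 0.64 and E2F5 by -0.32, and CCNE1 by 0.36 without degenerative pool A.

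**Figure D4:**
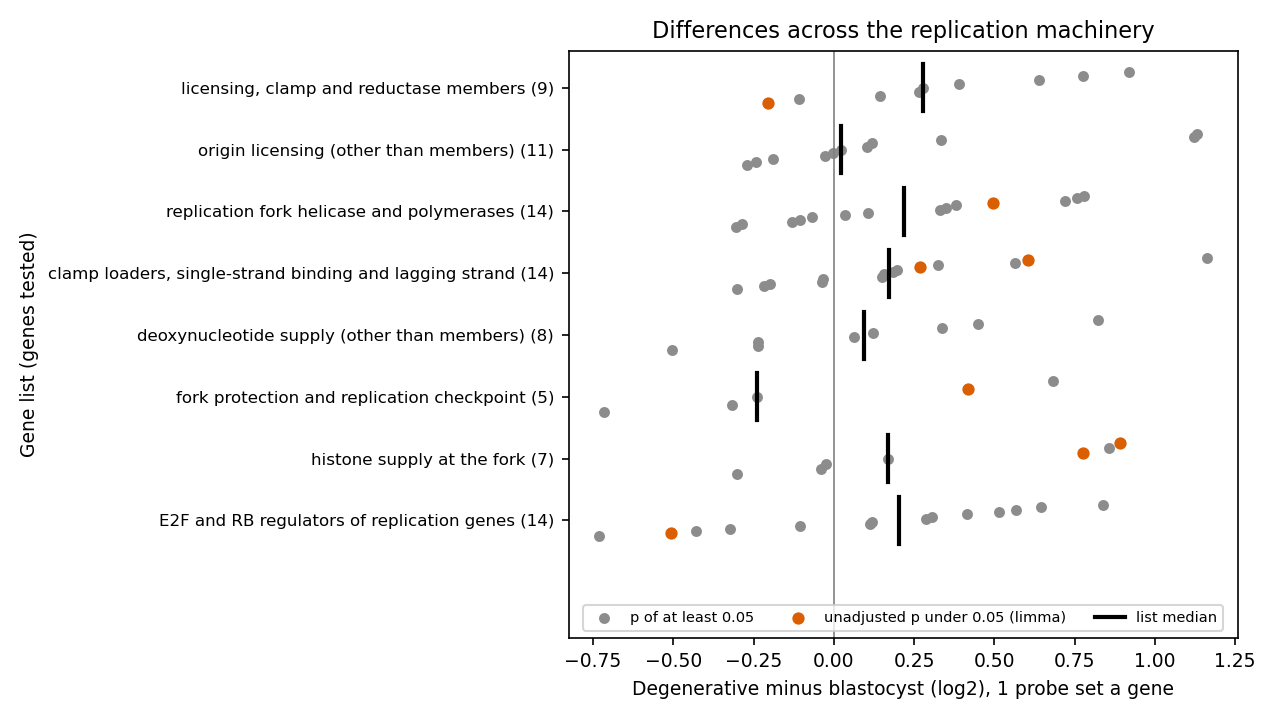
Difference between groups (degenerative minus blastocyst, log2, horizontal axis) of each tested gene of the members and of 7 replication lists, 1 point a gene, with list medians as black bars and genes with an unadjusted limma p under 0.05 in orange. The median is below 0 only for the fork protection and checkpoint list, at -0.24.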

How the data were processed

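RNA from pools of 20 embryos was amplified, labelled with biotin and hybridised to Affymetrix Bovine Genome Arrays. The authors deposited log2 expression values per probe set, made with GCRMA, for which the submitters' processing notes name version 2.14.1. Arrays have no read depth, and the 3 pools per group limit the precision. The file held 24036 probe sets. Leaving out 20 controls and 5079 constant probe sets, 18937 entered the fit, made in limma 3.58.1 (R 4.3.3, lmFit and eBayes). Calls needed a Benjamini-Hochberg adjusted p no higher than 0.15, as the methods set for SAM. SAM was written again as an alternative. Probe sets were named by the platform annotation, with symbols brought up to date by the ARS-UCD2.0 gene table. Lists used the probe set of a gene with the highest mean, and summed marker levels are log2 of the sum of linear values. Named genes were all members, up to 4 genes of each list with the smallest limma p, and the 5 closest profiles. Reference, control and KIT and KRT18 values were added after they were seen. The members and lists were chosen with earlier results of these data known. Deviations of pools with the same letter correlated (r = 0.373 for A, 0.180 for B and 0.275 for C). Correlations between unlike letters were not taken, and no label says what pools of a letter share. The main fit had no block. Letters were paired only in the comparisons by letter and in the setting with the replicate block. The fit was tested on simulated data. Sequences were not analysed here.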

Additional observations from a re-analysis of the deposited data

How the results depend on the processing

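In the 8 settings that can move a difference, 70 of 80 differences of member probe sets kept their direction, and the 10 that turned were all in settings that left pools out. In those and the other settings of the limma fit, no member passed the limma threshold, the smallest adjusted p being 0.359. With the replicate block, 0 members were called and the PCNA p was 0.0409 (limma adjusted p = 0.516), and the block changed no call of a member. Leaving out 1 pool at a time, the difference ranged from -0.046 to 1.13 for MCM5, -0.51 to 1.50 for the dimmer MCM6 probe set, -0.038 to 0.54 for MCM7, -0.37 to 0.52 for RRM1 and -0.022 to 0.62 for RRM2. With both A pools left out, a setting chosen after seeing the data, it was -0.043 for RRM2 and -0.090 for RRM1. In that setting 3 members were higher and 2 lower without overlap. Fewer pools make such separation easier, and its share over all probe sets was not counted with pools left out. Members with an unadjusted limma p under 0.05 numbered 0 to 2 lower and 0 to 1 higher over the pools left out. PCNA stayed among them only without degenerative pool A, and MCM3 was the higher one, without degenerative pool C. Without degenerative pool A, 7.37% of all genes were lower with such a p. For the other pools left out, that share was not counted. The lower count of 1 went to 0 with centred arrays, with dim probe sets left out and with an intensity trend. Members without overlap numbered 1 to 3 higher and 1 to 2 lower over the pools left out, and 0 lower with centred arrays. SAM at 25% called 1 member, PCNA. Over all probe sets, limma called 4, 0 with the replicate block, 1 with centred arrays, 1 without dim probe sets, 0 with an intensity trend, 30 at an adjusted p of at most 0.25, and 0 to 33 without 1 pool, the 33 in the fit that lacked degenerative pool A, where the fit that lacked degenerative pool C gave 12. In the 7 replication lists, genes lower with an unadjusted limma p under 0.05 went from 1 to 4 without degenerative pool A, also chosen after seeing the data. SAM called 71 at 15% and 938 at 25%. The cause of these shifts was not tested. Values near the floor, 2.12, limit dim probe sets such as those of CDC7 and PRIM1.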
